A study of Mus musculus with 6 samples.

Results

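The interferon-inducible GTPases described here are 9 genes that were listed by name and found by symbol in the deposited table, out of 45777 genes. Gbp2, Gbp3, Gbp4, Gbp5 and Gbp7 encode guanylate-binding proteins (GBPs), and Igtp, Irgm1, Irgm2 and Iigp1 encode immunity-related GTPases (IRGs). All 9 had enough reads to be tested, among 18456 tested genes. Total RNA of mouse small intestine was sequenced in 6 libraries, with ribosomal RNA depleted. The 3 control libraries (replicates 1-1, 1-4 and 3-1) carry a GFP label, and the other 3 (replicates 2-1, 4-1 and 4-2) are labelled as overexpressing PKCzeta, an atypical protein kinase C whose gene is Prkcz. The prefix DIO of all 6 titles is left unexplained in the sources used here, and strain, age, vector and the number of mice are not given there. The comparison asks which genes differ after overexpression of Prkcz.

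GBPs and IRGs are dynamin-like GTPases that interferons, above all interferon gamma, induce in epithelial cells, macrophages and other cells. They gather on vacuoles and membranes that hold bacteria or parasites, and GBPs also promote the sensing of bacterial products by inflammasomes. Interferon gamma signals through the kinases JAK1 and JAK2, and promoters of its targets often hold the gamma-activated site (GAS), while factors of the IRF family bind the interferon-stimulated response element (ISRE). Among IRGs, Iigp1 is an effector that loads onto vacuoles, whereas Irgm1, Irgm2 and Igtp (also called Irgm3) are regulators that hold the effectors inactive on the cell's own membranes.

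The promoters of the members are shown first because the members are grouped here as targets of 1 signal. A promoter of 300 bases, from 250 before to 50 after the gene start (RefSeq, GRCm38.p6), was searched for 7 of the 9 members: Gbp2, Gbp3, Gbp5, Gbp7, Igtp, Irgm1 and Irgm2. A core of the ISRE (GAAA, any 2 bases, GAAA, searched on both strands) occurred in all 7 of these genes, compared with 3.44% of all 32851 promoters in the table. The letters TTCNNNGAA, the core of a GAS, which reads the same on both strands, occurred in 4 of the 7 (Gbp5, Gbp7, Igtp and Irgm2), compared with 8.3% of all promoters. Gbp3 has a further promoter entry, which holds neither motif. No promoter of Gbp4 or Iigp1 was searched, so the counts of motifs do not cover these members. The promoters below are those of the 3 GBP genes with the smallest p-values and of the neighbouring IRG genes Igtp and Irgm2. They are written 5′ to 3′ along the gene, and capitals mark GAS and ISRE matches.
Gbp2 promoter (chr3:142620413-142620712, plus strand): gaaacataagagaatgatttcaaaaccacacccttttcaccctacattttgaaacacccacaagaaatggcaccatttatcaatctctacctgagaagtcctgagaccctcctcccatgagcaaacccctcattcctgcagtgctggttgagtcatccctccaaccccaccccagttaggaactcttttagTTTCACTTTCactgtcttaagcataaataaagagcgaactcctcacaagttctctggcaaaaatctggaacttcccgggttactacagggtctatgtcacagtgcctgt
Gbp3 promoter (chr3:142559794-142560093, plus strand): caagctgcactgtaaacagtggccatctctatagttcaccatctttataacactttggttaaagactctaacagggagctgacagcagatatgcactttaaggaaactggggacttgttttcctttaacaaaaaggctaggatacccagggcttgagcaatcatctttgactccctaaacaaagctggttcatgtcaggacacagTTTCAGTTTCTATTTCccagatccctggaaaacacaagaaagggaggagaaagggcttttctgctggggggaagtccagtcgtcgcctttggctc
Gbp5 promoter (chr3:142496684-142496983, plus strand): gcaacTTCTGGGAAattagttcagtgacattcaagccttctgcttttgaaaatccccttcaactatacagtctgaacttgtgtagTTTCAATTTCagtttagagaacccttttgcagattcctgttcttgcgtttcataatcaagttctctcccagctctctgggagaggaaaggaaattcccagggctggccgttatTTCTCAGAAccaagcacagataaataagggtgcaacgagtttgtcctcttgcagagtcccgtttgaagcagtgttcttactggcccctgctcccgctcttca
Igtp promoter (chr11:58199306-58199605, plus strand): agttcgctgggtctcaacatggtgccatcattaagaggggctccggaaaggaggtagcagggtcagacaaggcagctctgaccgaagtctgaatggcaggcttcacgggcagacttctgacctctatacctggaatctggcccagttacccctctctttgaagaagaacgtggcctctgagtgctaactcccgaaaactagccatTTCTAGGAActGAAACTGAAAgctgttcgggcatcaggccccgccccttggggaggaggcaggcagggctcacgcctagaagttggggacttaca
Irgm2 promoter (chr11:58214727-58215026, plus strand): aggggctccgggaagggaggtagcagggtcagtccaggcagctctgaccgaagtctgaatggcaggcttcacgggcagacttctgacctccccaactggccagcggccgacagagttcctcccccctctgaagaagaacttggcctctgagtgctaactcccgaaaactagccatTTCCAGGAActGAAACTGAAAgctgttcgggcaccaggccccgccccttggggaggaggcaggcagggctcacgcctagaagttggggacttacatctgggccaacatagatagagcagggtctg
The ISRE match lies 59 bases before the start in Gbp2, and in Gbp3 a pair of overlapping matches lies 45 and 39 bases before it. In Gbp5 the ISRE match is farther away, at 165 bases, and GAS matches lie 245 and 52 bases before the start. The promoters of Igtp and Irgm2 resemble each other, with a longest identical run of 61 bases, and in each a GAS match (45 and 75 bases before the start) precedes an ISRE match (34 and 64 bases before it). A match of letters is a description of the sequence, and binding was not measured.

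**Figure D1:**
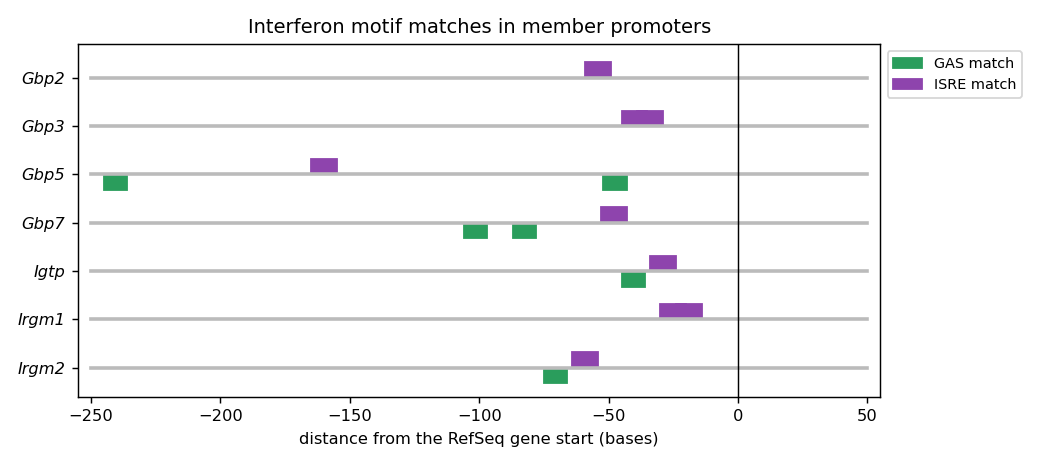
Positions of GAS (green) and ISRE (purple) letter matches in the promoters of 7 members, in bases from the RefSeq gene start at 0. Every promoter shown has at least 1 ISRE match, and those of Gbp5, Gbp7, Igtp and Irgm2 also have a GAS match.

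Before the members, the libraries were checked. Total counts ran from 77573133 to 93742978. Levels are given as CPM, counts scaled to library size with TMM factors. Prkcz itself stood at 88.7 ± 15.8 CPM in libraries labelled GFP and at 79.9 ± 21.6 in those labelled PKCzeta (SD, n = 3 each; log2 fold change -0.15, SE 0.24). Counts of the mouse gene Prkcz were thus not higher under the PKCzeta label. The vector is not given, so whether reads of a transgene would be counted there is not known. Every direction below is one between libraries labelled PKCzeta and libraries labelled GFP. Markers of the tissue were present, such as the enterocyte gene Fabp2. It stood at 9697 to 15337 CPM in GFP-labelled and at 3146 to 8541 CPM in PKCzeta-labelled libraries, without overlap. Mitochondrial genes took 3.37% to 10.7% in the GFP-labelled and 2.92% to 9.19% of counts in the PKCzeta-labelled libraries. The first digit of a replicate label is never shared by libraries of different groups, so what it may stand for cannot be told apart from the label. Nor can more cells of a type and more RNA per cell be told apart in whole tissue.

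Transcripts of all 5 listed GBP genes were more abundant in each PKCzeta-labelled library than in any GFP-labelled library, by 1.87-fold (Gbp3) to 3.51-fold (Gbp5). Those of the 4 IRG genes had fitted folds of 1.12 (Irgm1) to 2.23 (Iigp1), and their ranges overlapped between the labels. None of the 9 genes passed a threshold of 0.05 on the adjusted p by the quasi-likelihood test of edgeR, in which the members' adjusted p ran from 0.858 to 0.931. Over all 18456 genes 0 (0%) passed it, 1012 (5.48%) had an unadjusted p under 0.05 in edgeR, and limma voom called 0. By an unadjusted edgeR p under 0.05, 6 of the 9 members were higher, against 2.41% of all tested genes, and 0 were lower, against 3.07%. Ranges that do not overlap, with higher values under the PKCzeta label, were found for 5 of the 9 members and for 4.72% of all tested genes (lower values for 0 members and 5.66%). A log2 fold change above 1 was fitted for 5 of the 9 and for 4.08% of all. The median log2 fold change of the members was 1.01, beside 0.035 for all genes tested. Since the members were proposed with results of these data known, these counts are a description and no independent evidence. DESeq2 called 3 of the 9, Gbp2 (adjusted p 0.011), Gbp3 (adjusted p 0.00851) and Gbp5 (adjusted p 0.0196). It called 82 genes in all, 0.566% of those it gave an adjusted p, and 44 of the 82 were higher.

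**Figure D2:**
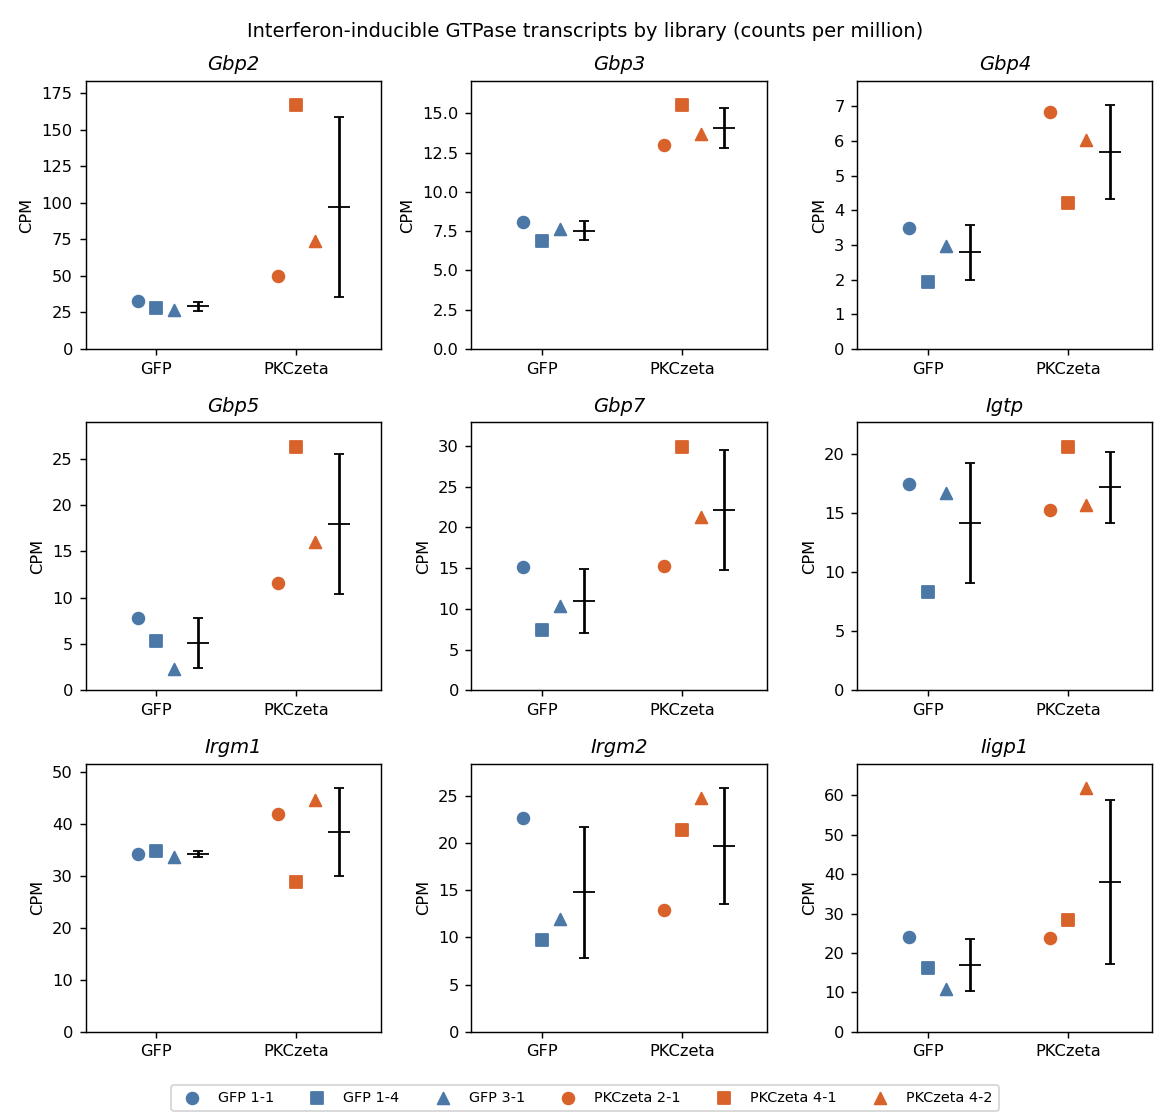
Level of each member in CPM after TMM scaling, by library, with the mean ± SD (n = 3) in black beside each group, on a separate linear axis from 0 for each gene. The points of the 5 GBP genes are separate between the labels, and those of the 4 IRG genes overlap.

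Among the GBPs, Gbp2 had the highest level. Gbp2 (Entrez 14469, chromosome 3 from 142620663 to 142638008) stood at 32.6, 28.2 and 26.7 CPM in GFP replicates 1-1, 1-4 and 3-1 and at 50.1, 167 and 73.8 CPM in PKCzeta replicates 2-1, 4-1 and 4-2. The GFP-labelled libraries lay close together, and replicate 4-1 stood far above the other PKCzeta-labelled libraries. The mean was 29.2 ± 3.05 CPM under the GFP label and 96.8 ± 61.6 CPM under the PKCzeta label (SD, n = 3 each). The fitted log2 fold change was 1.73 (SE 0.41, 95% CI 0.79 to 2.67, edgeR adjusted p 0.858). It was 1.09 without PKCzeta replicate 4-1.

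Gbp5, a GBP known for promoting activation of the NLRP3 inflammasome, had the largest fold of the 9. Gbp5 (Entrez 229898, chromosome 3 from 142496934 to 142522344) was at 7.78, 5.28 and 2.30 CPM in GFP replicates 1-1, 1-4 and 3-1, and PKCzeta replicates 2-1, 4-1 and 4-2 held 11.6, 26.3 and 16.0 CPM. GFP replicate 3-1 was the lowest and PKCzeta replicate 4-1 the highest, 11.4 times as high. The log2 fold change was 1.81 (SE 0.47, 95% CI 0.72 to 2.91, edgeR adjusted p 0.858).

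Gbp3 had the smallest standard error of the listed GBPs. It lies between Gbp7 and Gbp2 on chromosome 3 (Entrez 55932, from 142560016 to 142573213). Its levels were 8.11, 6.87 and 7.63 CPM in libraries labelled GFP and 13.0, 15.5 and 13.7 CPM in those labelled PKCzeta, and the SD was 8.28% and 9.19% of the mean. The log2 fold change was 0.90 (SE 0.19, 95% CI 0.45 to 1.35, edgeR adjusted p 0.858), and by unadjusted p (0.00167) it ranked 24 of 18456 genes.

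Gbp7 and Gbp4 were separated by narrow gaps. Gbp7 (Entrez 229900, chromosome 3 from 142530336 to 142550151) was at 15.1, 7.37 and 10.4 CPM in libraries labelled GFP and at 15.3, 29.9 and 21.2 CPM in those labelled PKCzeta. GFP replicate 1-1 and PKCzeta replicate 2-1 were nearly level. Gbp4 (Entrez 17472, chromosome 5 from 105115767 to 105139586) was at 3.49, 1.93 and 2.97 CPM against 6.83, 4.21 and 6.02 CPM, and here replicate 2-1 was the highest library and 4-1 the lowest of the PKCzeta-labelled ones. The log2 fold changes were 1.01 (SE 0.33) for Gbp7 and 1.02 (SE 0.32) for Gbp4, with adjusted p of 0.864 and 0.858 in edgeR.

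Of the IRGs, the effector gene Iigp1 (Entrez 60440, chromosome 18) had the largest fold. It stood at 23.99, 16.2 and 10.8 CPM in libraries labelled GFP and at 23.7, 28.4 and 61.8 CPM in those labelled PKCzeta. Replicate 4-2 was more than double any other library, and replicate 2-1 lay just under GFP replicate 1-1, so the ranges overlapped. The log2 fold change was 1.16 (SE 0.42, 95% CI 0.19 to 2.13, edgeR adjusted p 0.871), and 0.63 without PKCzeta replicate 4-2.

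The regulators of the family followed with smaller fitted values. Irgm1 (Entrez 15944, chromosome 11 from 48865245 to 48871420), which is also needed for the survival of blood stem cells and T cells, was at 34.3, 34.8 and 33.7 CPM in libraries labelled GFP and at 41.97, 28.8 and 44.6 CPM in those labelled PKCzeta. PKCzeta replicate 4-1, the highest library for 4 of the 5 GBP genes, was the lowest of all 6 for Irgm1. Its log2 fold change was 0.17 (SE 0.19, 95% CI -0.28 to 0.61), and without PKCzeta replicate 2-1, 4-1 or 4-2 it was 0.045, 0.34 or 0.048.

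Igtp and Irgm2 lie next to each other on chromosome 11, from 58199556 to 58207592 (Entrez 16145) and from 58214977 to 58222783 (Entrez 54396). Igtp was at 17.4, 8.34 and 16.6 CPM in libraries labelled GFP and at 15.2, 20.6 and 15.6 CPM in those labelled PKCzeta. Irgm2 was at 22.6, 9.71 and 11.97 CPM against 12.9, 21.4 and 24.8 CPM. GFP replicate 1-4 was the lowest library for both genes. The log2 fold changes were 0.28 (SE 0.30, 95% CI -0.42 to 0.97) for Igtp and 0.41 (SE 0.37, 95% CI -0.44 to 1.26) for Irgm2. Without GFP replicate 1-4 they were 0.0087 and 0.19, and without GFP replicate 1-1 they were 0.44 and 0.84. The adjusted p of the 3 regulators ran from 0.917 to 0.931 in edgeR. The intervals of Igtp and Irgm2 include the log2 fold change of Gbp3, and that of Irgm1 ends below it. Whether members differ from each other in their response was not tested.

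**Figure D3:**
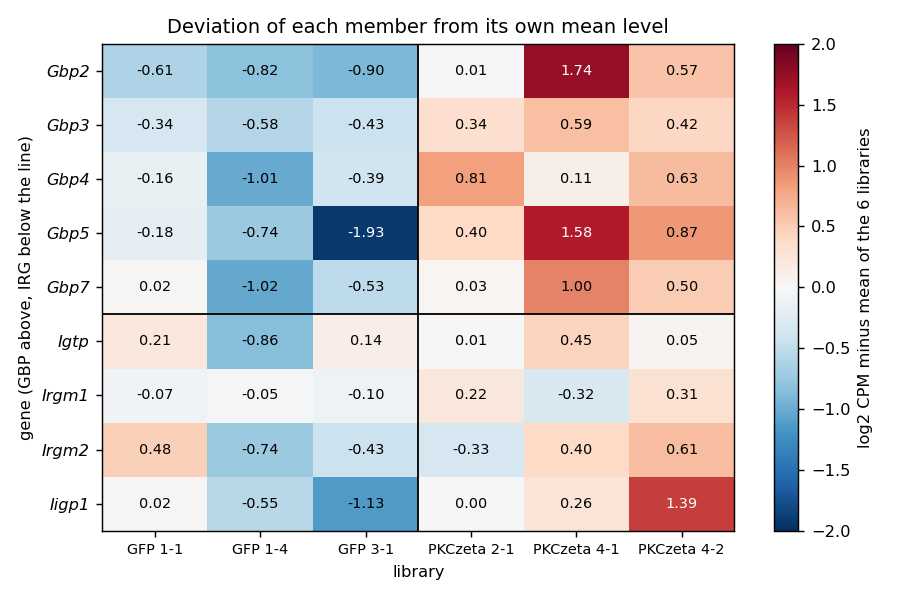
Log2 CPM of each member in each library minus the gene's own mean over the 6 libraries, red for above and blue for below, with the value in each cell. The 5 GBP rows are above the line, and Gbp2 and Gbp5 reach 1.74 and 1.58 in PKCzeta replicate 4-1, while Iigp1 reaches 1.39 in replicate 4-2.

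The PKCzeta-labelled libraries differed in which members stood highest. Replicate 4-1 held the highest level of Gbp2, Gbp3, Gbp5, Gbp7 and Igtp, and replicate 4-2 that of Irgm1, Irgm2 and Iigp1. The CPM of replicate 4-1 was 2.26 times that of replicate 4-2 for Gbp2 and 1.64 times for Gbp5, but 0.46 times for Iigp1 and 0.645 times for Irgm1. With only 1 library behind each such value, these ratios have no replicate check.

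Levels of different genes are compared per transcript length, as the deposited TPM, which are scaled by length and library size. In the GFP-labelled libraries the order was Irgm1 (18.7 ± 1.76 TPM), Gbp2 (14.0 ± 2.00), Igtp (8.12 ± 2.61), Irgm2 (4.94 ± 2.34), Iigp1 (4.62 ± 1.72), Gbp3 (3.21 ± 0.191), Gbp7 (2.29 ± 0.808), Gbp5 (2.03 ± 1.12) and Gbp4 (0.722 ± 0.229), as mean ± SD with n = 3. From Igtp downwards each gene's range over the libraries overlapped that of the next. Whether these neighbours differ within a library was not tested. In the PKCzeta-labelled libraries Gbp2 (24.3, 92.6 and 48.1 TPM) had the highest mean, followed by Irgm1 (24.7 ± 7.47 TPM), and these ranges overlapped. After them came Igtp (11.7 ± 2.53 TPM), Iigp1 (11.7 ± 7.25), Gbp5 (8.31 ± 3.66), Irgm2 (7.98 ± 3.47), Gbp3 (6.93 ± 1.23), Gbp7 (5.52 ± 2.06) and Gbp4 (1.71 ± 0.421). In that order only the steps from Irgm1 to Igtp and from Gbp7 to Gbp4 had ranges that did not overlap. Within a library, where scaling cancels, the TPM of Gbp2 was 0.831, 0.713 and 0.703 times that of Irgm1 in GFP replicates 1-1, 1-4 and 3-1. It was 1.05, 5.09 and 1.46 times that of Irgm1 in PKCzeta replicates 2-1, 4-1 and 4-2. Irgm1 was thus the more abundant transcript in each GFP-labelled library and Gbp2 in each PKCzeta-labelled one.

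Close relatives can share reads, and the counting of reads with several matches was not given in the sources used here. In GENCODE M21 transcripts, the share of a member's windows of 100 bases that occur exactly in another gene was 0% for Gbp2, Irgm1 and Iigp1. It was 0.694% for Gbp3, 1.64% for Gbp4, 0.142% for Gbp5, 5.16% for Igtp and 3.01% for Irgm2. For Gbp7 it was 10%, nearly all of it shared with the pseudogene Gm43802. Higher shares were found for other family genes, namely Tgtp1 and Tgtp2 (73.1% and 76.8%), Gbp10 (73.5%), Gbp6 (64.5%) and Gvin1 (97.8%). The same held for 9930111J21Rik1 and 9930111J21Rik2 (70.5% and 48.3%) and Gm5431 (20.6%).

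The wider families held further genes with higher values. Of 21 other GBP, IRG and related GTPase genes tested, 19 were higher in libraries labelled PKCzeta (54.3% of all genes were), with a median log2 fold change of 0.77. By an unadjusted edgeR p under 0.05, 5 were higher (2.41% of all genes were) and 0 lower (3.07%), and 0 passed the adjusted threshold. Since several of the 21 share much of their sequence, they are not 21 separate measurements. The list's median was 0.46 without PKCzeta replicate 2-1. Gbp9, of the GBP cluster on chromosome 5, stood at 8.45, 5.11 and 4.999 CPM against 12.9, 14.0 and 13.9 CPM. Its log2 fold change was 1.14 (SE 0.26, edgeR adjusted p 0.858), and the 3 PKCzeta-labelled libraries were nearly level. The giant GTPase gene Gvin1 had 0.75 (SE 0.23), and the low-level genes Gm4841 and F830016B08Rik had 1.55 (SE 0.54) and 1.19 (SE 0.43). Gbp2b lies between Gbp3 and Gbp2 on chromosome 3 (from 142594816 to 142619179), and its values were 2.51, 3.38 and 2.89 CPM against 1.56, 2.26 and 4.54 CPM, a log2 fold change of -0.070 (SE 0.41). The IRG gene Ifi47 had 0.028 (SE 0.18). Gbp2b and Ifi47 were chosen after their values were seen.

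**Figure D4:**
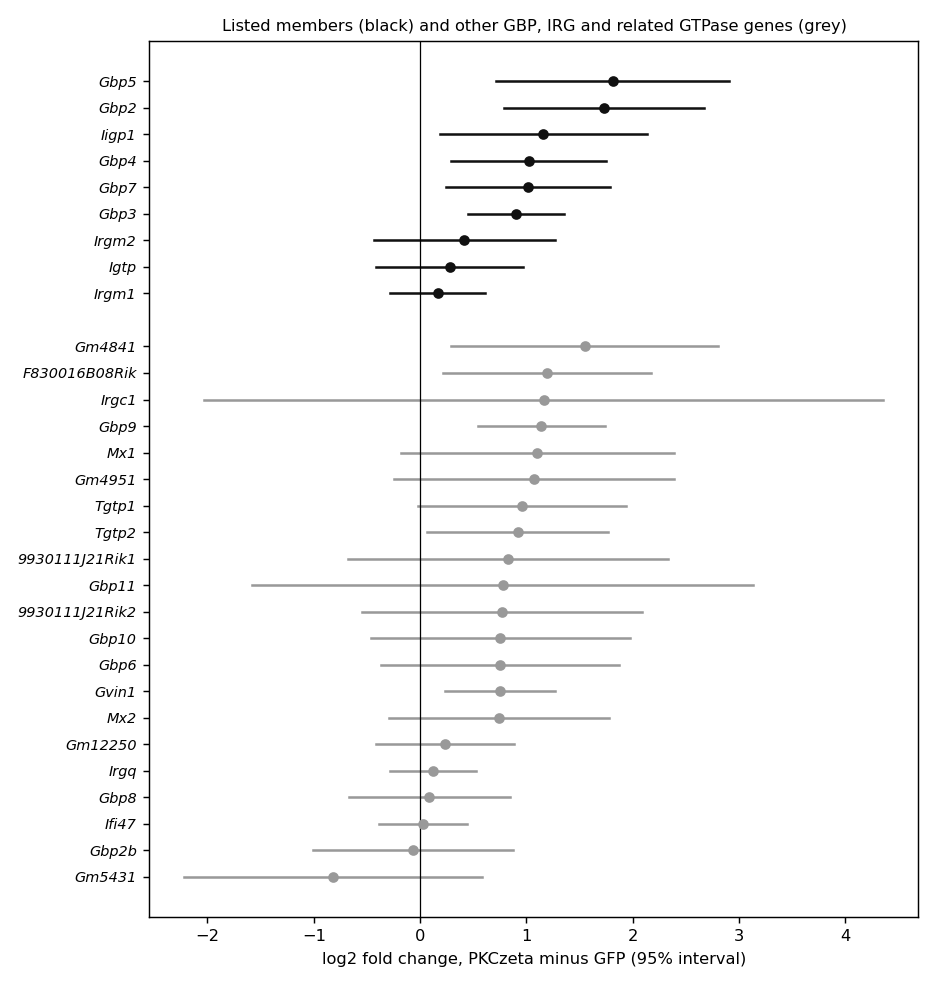
Log2 fold change between PKCzeta-labelled and GFP-labelled libraries with its 95% interval in edgeR, for the 9 members (black) and 21 other family genes (grey). The intervals of the 5 GBP members and Iigp1 lie above 0 before adjustment, and those of Irgm1, Irgm2 and Igtp include it.

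The signal that induces these genes was looked for from ligand to target. Interferon gamma transcripts were near the limit of detection, with 6, 0 and 0 reads of Ifng in the GFP-labelled and 4, 9 and 0 reads in the PKCzeta-labelled libraries. Ifnb1, Ifnl2 and Ifnl3, which encode type I and type III interferons, had 0 reads in all 6 libraries. A count of 0 allows up to 3 reads, or 0.0287 to 0.0378 CPM per library, for counting error only. The receptor genes had log2 fold changes of -0.074 (SE 0.17) for Ifngr1 and -0.40 (SE 0.23) for Ifngr2. Of 6 tested ligand and receptor genes 1 was higher, Ifnar2 at 0.31 (SE 0.22), and the median was -0.22, or -0.023 without GFP replicate 3-1. Ifnar1 and Ifnlr1, of the type I and type III receptors, had -0.23 (SE 0.15) and -0.34 (SE 0.27).

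Of 8 tested inducers of interferon gamma 4 were higher (median 0.085, which changed sign in 4 of 8 alternatives). Il12a, a subunit of interleukin 12, had 13, 0 and 0 reads against 94, 8 and 22 reads, so that PKCzeta replicate 2-1 held most of its reads. Il18 and Il15, cytokines that act on T and NK cells, had log2 fold changes of -0.35 (SE 0.26) and -0.18 (SE 0.30), and Tbx21, the T-bet gene, had 0.32 (SE 0.65).

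The transducers had smaller fitted differences. Irf1, a transcription factor gene that interferon gamma itself induces, stood at 99.7, 109.5 and 89.5 CPM in libraries labelled GFP and at 71.5, 122.6 and 124.2 CPM in those labelled PKCzeta. These ranges overlapped, and its log2 value was 0.092 (SE 0.23, 95% CI -0.43 to 0.62). Of 11 genes of the JAK-STAT and IRF list 4 were higher (median -0.044, which changed sign in 1 of 8 alternatives), and Irf7, Irf2, Irf8 and Stat2 had -0.26, -0.37, -0.25 and 0.32 with SEs of 0.22, 0.34, 0.24 and 0.32. All 7 genes listed as restraining the pathway had log2 values above 0, as did 54.3% of all genes. Their median was 0.33, or 0.17 without GFP replicate 3-1. Of these the phosphatase gene Ptpn2 stood at 34.9 ± 2.45 against 45.7 ± 3.67 CPM (SD, n = 3), or 0.39 in log2 (SE 0.15, edgeR adjusted p 0.877), with ranges that did not overlap. Ptpn6, Socs1 and Socs3 had 0.38 (SE 0.22), 0.50 (SE 0.38) and 0.33 (SE 0.25).

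Other interferon targets had medians closer to that of all genes. Of 22 targets of interferon gamma that are not GTPases 9 were higher and 13 lower, while 54.3% of all genes were higher. Their median was -0.14. With 1 library left out it ran from -0.25 (without PKCzeta replicate 4-1) to -0.064 (without 4-2). By an unadjusted edgeR p under 0.05, 2 were higher (2.41% of all genes were) and 1 lower (3.07%). The protease inhibitor gene Serpina3g, at 9.89 ± 6.06 against 22.2 ± 3.93 CPM (SD, n = 3), and Nlrc5, the activator of MHC class I genes, at 4.58 ± 2.37 against 9.37 ± 2.15 CPM, had log2 fold changes of 1.17 (SE 0.44) and 1.03 (SE 0.40). Of the other genes with the smallest p, Tapbp, which helps to load peptides onto MHC class I, was at 210.1 ± 24.3 against 139 ± 33.1 CPM and B2m, the light chain of MHC class I, at 1469 ± 136 against 1002 ± 314 CPM (log2 fold changes -0.60, SE 0.21, and -0.55, SE 0.26). None of these 4 genes passed the adjusted threshold in edgeR (adjusted p 0.867 to 0.917). Of 19 targets of type I interferon 13 were higher (median 0.13). The median was -0.41 without PKCzeta replicate 2-1 and 0.39 without PKCzeta replicate 4-1. Oas2 had 1.37 (SE 0.44) from a mean of 0.294 CPM, Oasl1 had -0.66 (SE 0.27), and Ifit2 and Ifit3 had 0.74 (SE 0.36) and 0.88 (SE 0.48).

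**Figure D5:**
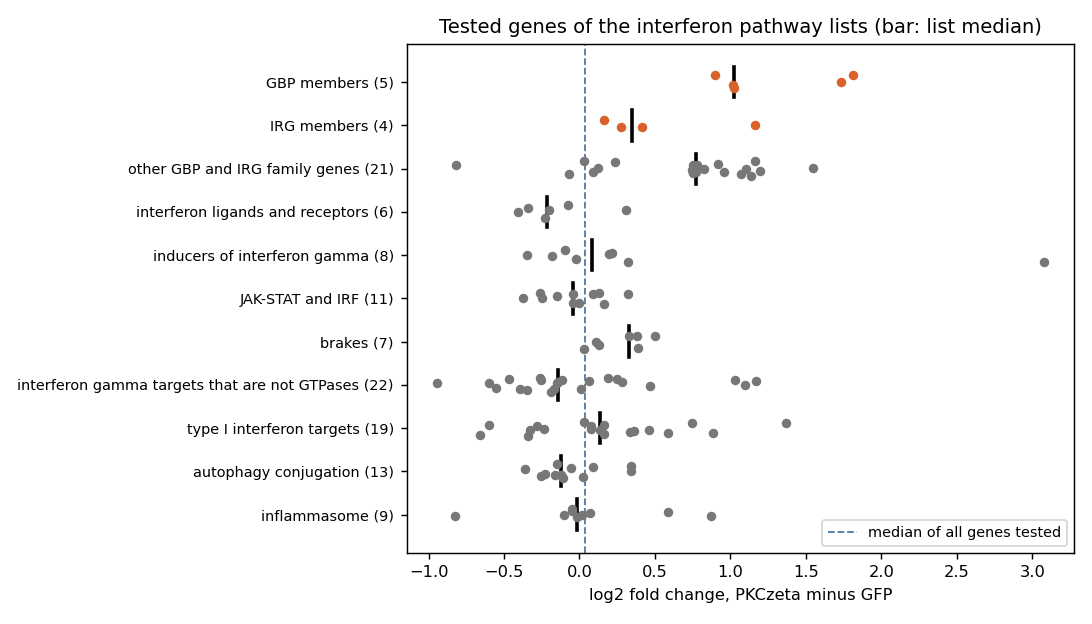
Log2 fold change of each tested gene by list (points), the list median (black bar) and the median of all genes tested (dashed line at 0.035), with the number of tested genes in brackets. The median is 1.02 for GBP members and 0.35 for IRG members, and between -0.22 and 0.33 for the pathway lists other than that of the wider GTPase families.

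Marker levels of other cell types are given beside those of the members. Of all tested genes, 54.3% had a log2 fold change above 0. By an unadjusted edgeR p under 0.05, 2.41% of all were higher and 3.07% lower. The summed level of 8 neutrophil markers was 2.91 to 6.06 CPM in libraries labelled GFP and 6.77, 45.9 and 29.0 CPM in PKCzeta replicates 2-1, 4-1 and 4-2. Of its 6 tested genes 5 were higher, all 5 at an unadjusted edgeR p under 0.05, and the defining marker Ly6g had 0 reads in each GFP-labelled library and at most 0.861 CPM in the others. Macrophage and dendritic markers had log2 fold changes above 0 in 9 of 9 genes, with a median of 0.20 and 0 at an unadjusted edgeR p under 0.05. Their sums, 162 to 279 against 273 to 346 CPM, overlapped. Markers of T and NK cells, which make interferon gamma, summed to 29.7 to 60.1 against 24.9 to 54.7 CPM, with 6 of 10 genes higher. Endothelial markers summed to 46.1 to 57.6 against 44.7 to 68.6 CPM (3 of 5 higher). Enterocyte markers were lower in 10 of 10 genes, 5 of them at an unadjusted edgeR p under 0.05. Their sums were 37722 to 48903 against 16792 to 34413 CPM. Goblet cell markers summed to 16002 to 20411 against 13306 to 15939 CPM (1 of 6 genes higher). Mesothelial markers summed to 6.15 to 15.5 against 1.67 to 3.33 CPM, with 0 of 4 genes higher and 3 at an unadjusted edgeR p under 0.05. Markers of glia and neurons summed to 3.54 to 5.58 against 6.54 to 13.2 CPM, with 4 of 5 genes higher. The sums of the other lists (Paneth, enteroendocrine, tuft, crypt and stem, B and plasma cell, fibroblast and smooth muscle) overlapped between the labels. The part of these cells in the members' levels was not tested.

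By the profile over libraries, 8 genes of 12615 compared outside the GTPase families were most like the mean log2 CPM of the members. They were Slf2 (Pearson's r 0.995), the tyrosine kinase gene Fgr (0.992), the glutamine synthetase gene Glul (0.989), the interleukin-1 receptor gene Il1r1 (0.989), the hyaluronan receptor gene Cd44 (0.987), Mga (0.986), Tagap1 (0.985) and Sntb2 (0.985). These values rest on only 6 libraries, include the difference between the labels and describe likeness alone. Il1r1 stood at 17.6, 9.46 and 9.38 CPM in libraries labelled GFP and at 21.1, 35.4 and 26.8 CPM in those labelled PKCzeta, so that, as for Gbp2, replicate 4-1 was the highest.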

How the data were processed

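RNA was extracted with a column kit and made into stranded total RNA libraries, per the labels' protocols. Build mm10 and the tools FastQC, Trimmomatic, HISAT2 and StringTie are named in the submitters' processing notes, whereas how reads were counted was not given in the sources used here. In 1 table of 45777 genes the authors deposited raw read counts, FPKM (not used here) and TPM for each library, per the file headers. Positions and promoters come from RefSeq tables of GRCm38.p6, and transcript windows from GENCODE M21, both of the mm10 assembly.

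The test of the counts was that of edgeR 4.0.16 under R 4.3.3 (filterByExpr, TMM, robust quasi-likelihood F test, two-sided), which left 18456 genes, with Benjamini-Hochberg adjustment over all of them and a threshold of 0.05. Log2 fold changes are PKCzeta minus GFP, and list medians are descriptions with no test. The likeness measure used log2 CPM with a prior count of 2 and genes with a mean of at least 1 CPM. The alternatives were other scalings and filters, DESeq2 1.42.0, limma 3.58.1 (voom with quality weights, and log2(TPM + 1) and log2(TPM + 0.1) for a mean TPM of at least 0.5), removal of 758 rows (ribosomal RNA, mitochondrial genes, receptor and immunoglobulin segments), and removal of each library in turn. The sums of neighbouring genes were added after seeing the data. The edgeR step was also run on simulated data, and the outcome is not reported here.

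The members and lists were chosen with earlier results of these data known. Named genes were the members, Prkcz, up to 4 genes per list with the smallest p, Ifng, Ifngr1, Ifngr2 and Irf1 (1 further gene is not reported here), and the 8 genes most like the members; others are said to be chosen after their values were seen. The labels do not say that each library is a separate animal, so p-values measure only the spread between these samples.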

Additional observations from a re-analysis of the deposited data

How the results depend on the processing

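The log2 fold change of each of the 9 members stayed above 0 in all 15 alternatives that kept it as a gene of its own. The members past an adjusted p of 0.05 numbered 0 in edgeR under each scaling and filter, in limma voom and on TPM, and 0 without any 1 library. They numbered 3 in DESeq2 (Gbp2, Gbp3 and Gbp5), which gave no adjusted p for 3963 genes. It called 82 genes in all, 0.566% of those with an adjusted p, while edgeR called 0. The members' median ran from 0.82 to 1.20 when 1 library was left out, with 5 to 7 members past an unadjusted p under 0.05 in edgeR. In the same fits 1.42% to 4.03% of all tested genes were higher at that threshold. The number of members with ranges that did not overlap (5 to 7) is no check, since leaving out a library can only keep or raise it. On log2(TPM + 1) and log2(TPM + 0.1) the median of all genes was 0.20 and 0.25, and that of the members 0.90 and 1.15, so differences on that scale are to be read against this shift. In GENCODE M21, though not in RefSeq, Igtp overlaps Irgm2 and Gbp4 overlaps Gbp8 and Gbp9. With their reads summed, the log2 value was 0.35 (SE 0.30) for Igtp and Irgm2 and 0.87 (SE 0.23) for the 3 Gbp genes. Depth limits only Ifng, Il12a and other genes near the floor. No paired analysis was possible because no replicate label occurs in both groups.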

Other observations

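The machinery with which these GTPases work was looked at by list. A list of 13 autophagy genes held those of conjugation, which places IRGs and GBPs on target membranes, and also Sqstm1, Traf6 and Trim21. Of these 13 genes, 4 were higher and 9 lower (median log2 fold change -0.12, -0.21 without PKCzeta replicate 2-1 and -0.032 without 4-2). Sqstm1, a receptor for ubiquitinated cargo, had -0.36 (SE 0.17), Atg16l1 had 0.34 (SE 0.20), and Gabarap had -0.23 (SE 0.15). Of 9 inflammasome genes 4 were higher (median -0.013, which changed sign in 2 of 8 alternatives). Gsdmd, the pore-forming gasdermin D, stood at 326 ± 71.0 CPM in libraries labelled GFP and at 183 ± 55.4 CPM in those labelled PKCzeta (SD, n = 3), or -0.83 in log2 (SE 0.27), with ranges that did not overlap. Il1b had 0.87 (SE 0.35), and Aim2, a DNA sensor that acts downstream of GBPs in bacterial infection, had 0.59 (SE 0.25). None of these passed the adjusted threshold in edgeR (adjusted p 0.860 to 0.917).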
